A study of Mus musculus with 6 samples.

Results

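The neighbouring genes Cmpk2 and Rsad2 on mouse chromosome 12 carried a dense series of hnRNP UL1 peaks after 4 h of lipopolysaccharide (LPS). By time, 0, 24 and 1 were listed at 0, 4 and 10 h. The peaks were chosen by position and by gene name: every row of the peak tables that names Cmpk2 or Rsad2 as nearest gene, and every peak within 20 kb of the joint span of both genes. This gave 25 of the 18624 peaks in the 3 tables. The locus was itself picked from earlier results on its peak counts, so the counts by time are a description and carry no test. The cells were RAW 264.7, a mouse macrophage-like line, kept in LPS (100 ng/ml) for 0, 4 or 10 h, and the ChIP antibody was raised to hnRNP UL1. This nuclear RNA-binding protein has known roles in RNA processing and in the DNA damage response. Groups are the ChIP samples of 0 h (labelled untreated), 4 h and 10 h, with 1 library each, and 3 input samples that were not analysed here. All groups are the same line with no named genetic change, and the cell type could not be checked against markers, because peak positions do not measure expression. Each row of a table places a peak as a point 2 bp wide, without height, fold enrichment, q-value or read depth, so a peak is either listed or not listed.

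Rsad2 encodes viperin, a radical SAM enzyme of antiviral defence that converts CTP into a nucleotide analogue which ends the RNA chains of viral polymerases. Cmpk2 encodes a mitochondrial UMP-CMP kinase that supplies nucleotides for mitochondrial DNA synthesis, a step tied to inflammasome activation in mouse macrophages. Both are well-known interferon-stimulated genes. LPS acts on Toll-like receptor 4, which through the adaptor TRIF and the factor IRF3 turns on interferon beta. Secreted interferon then acts on its receptor, and the transcription factors it activates bind the interferon-stimulated response element (ISRE).

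In the RefSeq annotation of GRCm38.p6, Rsad2 (ENSMUSG00000020641) spans 26442743 to 26456452 of chromosome 12 on the minus strand, and Cmpk2 (ENSMUSG00000020638) spans 26469117 to 26479837 on the plus strand. The genes are transcribed away from each other, and their start sites lie 12.8 kb apart. The windows of 250 bases before to 50 bases after each start, from RefSeq on GRCm38.p6, are shown because the distances below are measured from these starts and because both genes carry their peaks in the same library. The window of Rsad2 is chr12:26456403-26456702 on the minus strand and that of Cmpk2 is chr12:26468965-26469264 on the plus strand. Both are written 5′ to 3′ along the gene, and capitals mark the motif matches described next.
Rsad2: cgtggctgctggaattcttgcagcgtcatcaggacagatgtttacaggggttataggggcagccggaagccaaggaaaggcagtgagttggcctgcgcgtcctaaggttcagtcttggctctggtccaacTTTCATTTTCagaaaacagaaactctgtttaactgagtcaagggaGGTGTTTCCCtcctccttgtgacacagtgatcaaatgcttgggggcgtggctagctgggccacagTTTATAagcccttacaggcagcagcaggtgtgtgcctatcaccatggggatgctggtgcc
Cmpk2: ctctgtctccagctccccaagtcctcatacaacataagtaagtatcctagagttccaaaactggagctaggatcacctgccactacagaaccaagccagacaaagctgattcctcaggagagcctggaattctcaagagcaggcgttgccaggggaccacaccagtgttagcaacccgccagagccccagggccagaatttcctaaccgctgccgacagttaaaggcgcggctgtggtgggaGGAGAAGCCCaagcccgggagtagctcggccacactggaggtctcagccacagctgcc

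Neither window held a 4 h point: the nearest lay 1649 bp from the Rsad2 window and 406 bp from the Cmpk2 window. Peak widths are not listed, and whether a point is the summit or the middle of its peak is not given, so a peak may extend into a window. Motifs were searched on both strands in 32851 promoter windows. The ISRE core, GAAA and GAAA with any 2 bases between them, was matched 1 time in the Rsad2 window, on the strand opposite to the gene, at bases -120 to -111, where the start site is base 0. It occurred in 3.44% of all windows. In the Cmpk2 window these letters did not occur. A loose NF-kB pattern, GGG and CC with any 5 bases between, matched 1 time in each window. Both matches lay on the strand opposite to the gene, at -75 to -66 in Rsad2 and at -8 to 1 in Cmpk2. The pattern occurred in 50.8% of all windows. TATAAA matched 1 time in Rsad2, at -10 to -5 on the opposite strand, and in 13.6% of windows. The GAS pattern TTCNNNGAA matched in neither and occurred in 8.30% of windows. No match overlapped another. A match is a run of letters and does not show that a factor was bound.

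The comparison of 4 h with 0 h asks where hnRNP UL1 lay on chromatin after LPS and before it. At 4 h 13 peaks named Cmpk2 and 11 named Rsad2. At 0 h 0 peaks named either gene, and 0 lay in the window of 77.1 kb. Exact 95% Poisson intervals, which cover counting error only, run from 15.4 to 35.7 for the 24 peaks at 4 h, from 6.92 to 22.2 for Cmpk2 and from 5.49 to 19.7 for Rsad2. The whole tables list 8425, 9046 and 1153 peaks at 0, 4 and 10 h, but they end at different gene IDs, so shares were taken over the common range, the peaks naming a gene with an ID under ENSMUSG00000022416, the end of the 10 h table. Both genes lie in this range. There the locus held 0.453% of the 5298 peaks at 4 h (exact Clopper-Pearson 95% interval 0.290 to 0.673%). At 0 h it held 0 of 1312 peaks, for which the same interval reaches up to 0.281%, and a limit of 3 counts gives 0.229%. These peaks lie close together and are not independent of each other, so the intervals are too narrow. Over the common range the 4 h list was 4.04 times as long as the 0 h list, and the share of 4 h would have placed 5.94 peaks in the locus at 0 h. As the locus was picked on its counts, that share may be too high and this number carries no test.

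Cmpk2 and Rsad2 were among 23 of 2104 genes in the common range that were named by at least 10 peaks at 4 h and by 0 at 0 h, which is 1.09% of the genes. Since the counts chose the locus, nothing is read from its place among them. By number of 4 h peaks alone Cmpk2 ranked 53rd and Rsad2 63rd of all 2104 genes, where tied genes share a rank.

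**Figure D1:**
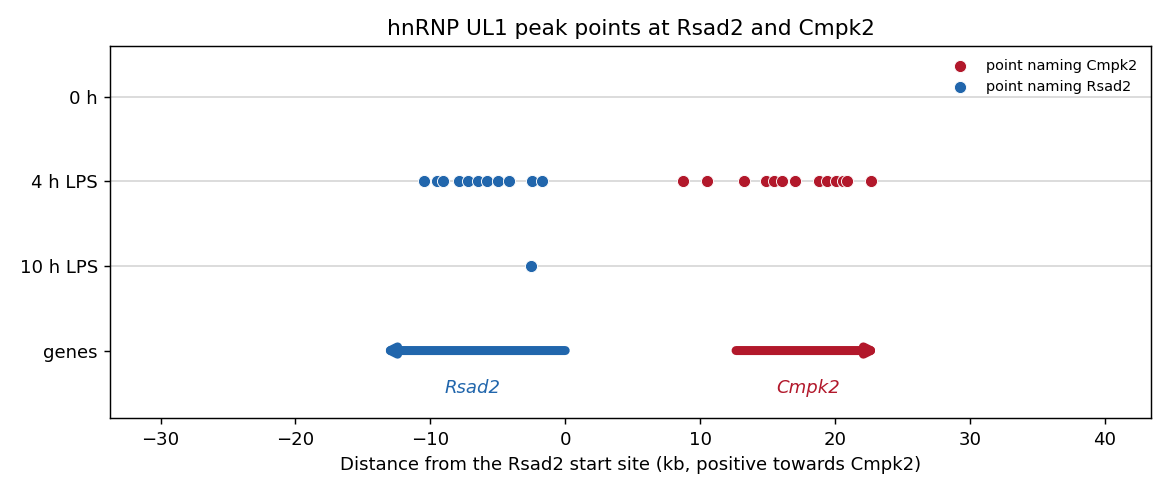
Peak points by time (rows) against distance from the Rsad2 start site in kb, with the window of 20 kb to both sides of the genes as the axis range. Arrows give the gene spans and the direction of transcription. At 4 h, 11 points naming Rsad2 and 13 naming Cmpk2 form a group on each side of a gap of 10.4 kb, at 0 h there is none, and at 10 h there is 1.

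All 11 Rsad2 peaks of 4 h lay inside the gene, between positions 26446006 and 26454754. The peak nearest to the start of Rsad2 was 1698 bp downstream of it, and the farthest was 10446 bp downstream, at 76.2% of the gene's length. Cut into 3 equal lengths from its start, the gene held 3, 6 and 2 peaks. The end of the gene beyond 26446006 held no peak, and none lay upstream of the start on the Rsad2 side of the space between the genes.

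The 13 Cmpk2 peaks of 4 h reached from 26465171, at -4044 bp from the start, to 26479096, at 92.2% of the gene's length. Of these 11 lay in the gene, spread as 4, 3 and 4 over 3 equal lengths from its start. The other 2, at 26465171 and 26466967, were the only 4 h peaks between the genes. The peak closest to a start in the whole locus was that at 26469670, 455 bp downstream of the Cmpk2 start.

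The positions thus fell into a group for each gene. Between the last Rsad2 peak at 26454754 and the first Cmpk2 peak at 26465171 there was a stretch of 10.4 kb without a peak, which holds the start of Rsad2. The other gaps measured 337 to 2703 bp, with a median over all 23 gaps of 796 bp, and 14 gaps were at most 1000 bp. Per kb of gene, peaks inside the gene numbered 1.03 in Cmpk2 and 0.802 in Rsad2. The median gap was 832.5 bp among the 13 Cmpk2 peaks and 792 bp among the 11 Rsad2 peaks.

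Spacing at the locus was set beside the 81 genes of the common range with at least 10 peaks at 4 h, whose median gaps had a median of 3662.5 bp. Rsad2 had the 3rd and Cmpk2 the 5th smallest median gap of these genes. The 3 others among the 5 smallest were Mx1 with 626 bp, an interferon-induced GTPase gene, Cd274 with 779 bp, the gene of the checkpoint ligand PD-L1, and Psap with 832 bp, the gene of the lysosomal protein prosaposin. In peaks per kb from the first to the last peak, Cd274 came first with 1.27, then Rsad2 with 1.26, Cmpk2 with 0.934 and Mx1 with 0.820, against a median of 0.163 over the 81 genes. Gene length was not taken into account. From first to last, the peaks reached over 8748 bp at Rsad2 and 13925 bp at Cmpk2, but over 1637182 bp at Pde4d. The order was read from the same peaks that chose the locus and is given as a description.

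**Figure D2:**
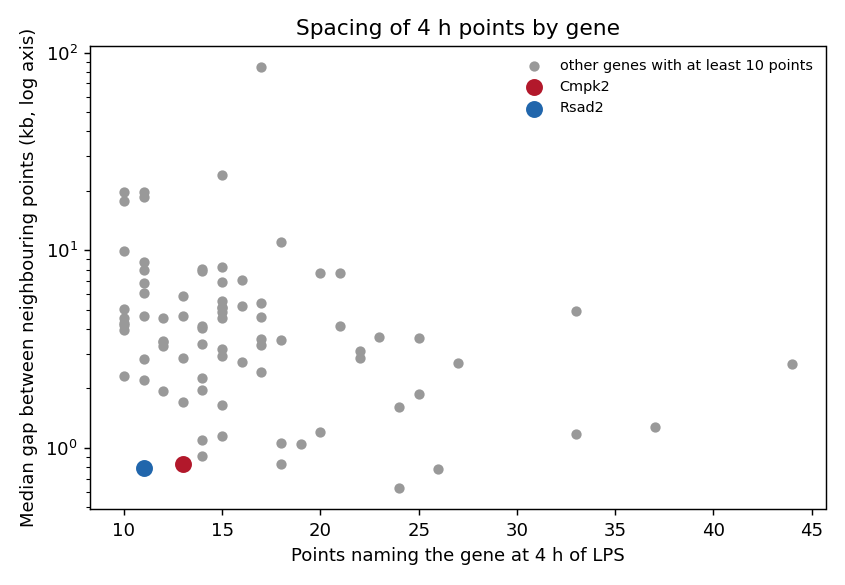
Median gap between neighbouring 4 h points of a gene (kb, log axis) against the number of 4 h points naming it, for the 81 genes of the common range with at least 10. Rsad2 (792 bp) and Cmpk2 (832.5 bp) lie near the lower edge.

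A stretch of 33.1 kb, the distance from the first to the last peak of the locus, held as many as 24 peaks at 4 h in 5 places of the common range. Besides Cmpk2 and Rsad2 these lay at Cd274 with up to 29 peaks, at Cpeb4 with 27, and at St3gal1 and Mx1 with 24 each. Over the longer range of IDs under ENSMUSG00000027620, which the 0 h and 4 h tables share, there were 7 such places, with Cflar (30 peaks) and Mx2 (30) added. In 4 of the 7, namely Cflar, Cmpk2 with Rsad2, Mx1 and Mx2, the same stretch held 0 peaks in the 0 h table.

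By the authors' annotation, 5 of the 24 peaks at 4 h (20.8%) lay within 1 kb of a transcript start, against 20.1% of all 4 h peaks in the common range. Promoter classes up to 3 kb took 12 of 24, 9 of 13 at Cmpk2 and 3 of 11 at Rsad2, against 36.5% of all. Introns took 7 (29.2%), of which 6 in Rsad2, against 40.7%. The 3′ UTR class took 3 (12.5%), against 2.30% of all. Of these 2 lay in the middle of Rsad2, at 42.4% and 57.3% of the gene's length, and 1 at 92.2% of Cmpk2. The class thus does not place the 2 in Rsad2 at the end of the RefSeq gene. The single exon peak lay in exon 4 of 5 of Cmpk2, at 26477039, and the single distal intergenic peak was that at 26465171.

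These classes depend on which transcript start was used. Of the 13 Cmpk2 rows 3 were measured from the transcript whose start lies 11 bp from the RefSeq start, and 10 from shorter transcripts that start 1530 bp (2 rows) or 4715 bp (8 rows) farther downstream. All 11 Rsad2 rows were measured from a shorter transcript, ENSMUST00000142732, whose start lies 1610 bp inside the gene. The Rsad2 peaks at 26454754 and 26453966 are therefore listed 87 bp and 875 bp from a start, but lie 1698 bp and 2486 bp downstream of the RefSeq start. Measured from the RefSeq starts, 1 of 24 peaks (4.17%) was within 1 kb, against 12.2% of 5200 peaks at 4 h whose named gene was matched in that annotation. For the 5200 peaks the outer 5′ end of the gene span stood for the start, so the 2 shares are not measured in quite the same way.

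At 10 h 1 peak was left in the table, at 26453936 in Rsad2, and 0 named Cmpk2. It lay 30 bp from the 4 h peak at 26453966 and was listed 905 bp from the start of the shorter transcript. The locus thus held 1 of 1152 peaks of the common range at 10 h, a share of 0.0868% (0.00220 to 0.483%), against 0.453% (0.290 to 0.673%) at 4 h. The intervals overlap. Over the common range the 10 h list was 0.217 times as long as the 4 h list, and the share of 4 h would have placed 5.22 peaks in the locus at 10 h. This number too carries no test, for the locus was picked on its counts. Of the 81 genes with at least 10 peaks at 4 h, 24 (29.6%) had at most 1 at 10 h, Cmpk2 and Rsad2 among them. No read depth is given, so the lengths of the lists could not be set against it.

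The surroundings of the locus held few peaks at any time. The window of 20 kb to both sides also holds the gene Gm46344 (26485889 to 26486868). No peak in this window lay beyond the outer ends of Cmpk2 and Rsad2, so none lay at Gm46344. The first peak outside, at 36.9 kb, was a 4 h peak at 26405814 naming Rnf144a, a ubiquitin ligase gene. In the 1 Mb to both sides of the genes the 4 h table listed 3 peaks besides the 24, all in or at Rnf144a, and the 0 h and 10 h tables listed 0 besides the locus. On the other side the next 4 h peak was 2270 kb away, at Trappc12. The nearest 0 h peaks lay 1017 kb and 4871 kb away. The 4 h and 10 h tables hold no peaks that name genes beyond their last IDs, so an empty stretch can include peaks that are not listed.

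**Figure D3:**
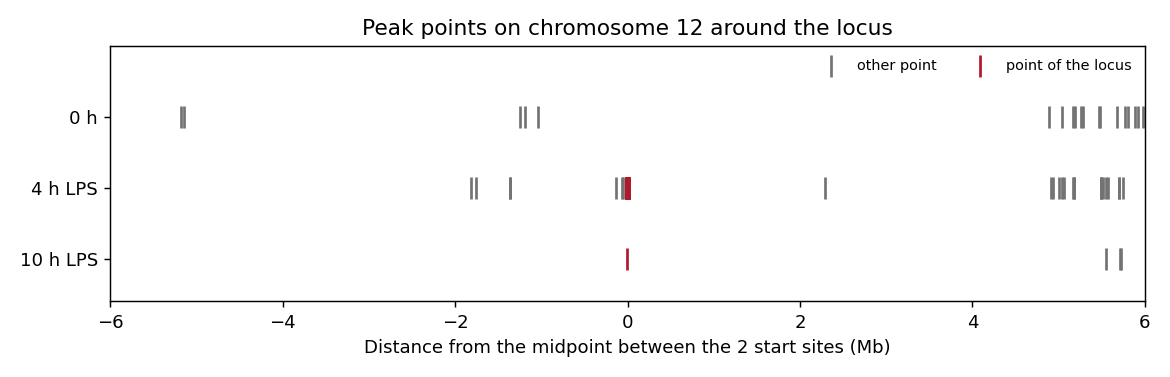
Peak points on chromosome 12 at 0, 4 and 10 h within 6 Mb of the midpoint between the Rsad2 and Cmpk2 start sites (x axis in Mb, each bar 1 point). The 24 points of 4 h stand in a stretch where the 0 h table lists none for 1017 kb on one side and 4871 kb on the other.

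The genes most like each member by counts at the 3 times were found by the distance of log2(peaks + 1) over the 3 times, which is 3 libraries. Closest to Cmpk2 (0, 13 and 0 peaks at 0, 4 and 10 h) were Stk10 (0, 12, 0), Cdk17 (0, 11, 0), Atxn7l1 (0, 16, 0), Epsti1 (0, 17, 0) and Lgals9 (0, 9, 0), at distances of 0.11 to 0.49. Eif3h (0, 9, 0) tied with Lgals9 and came after it by gene ID. Closest to Rsad2 (0, 11 and 1) were Tlk2 with the same counts, then Nos2 (0, 10, 1), the inducible nitric oxide synthase gene, and Ppp1r12a, Pus10 and Cdc42bpb (0, 9, 1 each), at distances of 0 to 0.26. Stk10, Cdk17 and Tlk2 encode protein kinases, Lgals9 a galectin, and Epsti1 is an interferon-inducible gene. Lgals9 had an ISRE core in its promoter window. Stk10, Atxn7l1, Epsti1, Tlk2, Ppp1r12a, Pus10 and Cdc42bpb had none in theirs, and Cdk17 and Nos2 had no window in the table.

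Other interferon-linked genes were compared through lists that do not contain Cmpk2 and Rsad2. The lists were chosen with earlier results of these data known, so their counts are a description and carry no test. Of 64 interferon-response genes 5 were named in the common range and 3 of these had more peaks at 4 h than at 0 h, against 76.9% of all 2104 genes. Trim25, a ubiquitin ligase gene that acts with the RNA sensor RIG-I, was named by 0, 13 and 2 peaks at 0, 4 and 10 h. Mx1 was named by 0, 24 and 3. In the longer range 12 were named, with 10 higher at 4 h, 1 lower and 1 equal, and 80.9% of 3435 genes were higher there. Together they were named by 115 peaks at 4 h and by 3 at 0 h, with a median difference of 4.5 peaks, against 1 over all genes of the range. The 5 in the common range were named by 40 peaks at 4 h and 2 at 0 h. Over all peaks of that range the 4 h list was 4.04 times as long as the 0 h list.

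Within that list the peaks were concentrated in a few genes. Mx2, an Mx1 paralog, was named by 26 peaks at 4 h, Sp100, a nuclear body gene, by 22, and Parp9, a gene of the ADP-ribosyltransferase family, by 7, each with 0 at 0 h. Ifih1, the gene of the RNA sensor MDA5, was named by 14 at 4 h and 1 at 0 h. Mx1 and Mx2 are annotated as transcribed pseudogenes in the RefSeq reference used here and resemble each other in sequence, so the split of peaks between them is uncertain. Eif2ak2, Ifitm3, Ifi35 and Zbp1 had 2 each at 4 h and 0 at 0 h, Irf1 had 1 at each of these times, and Dhx58 had 0 at 4 h and 1 at 0 h. At least 10 peaks at 4 h with 0 at 0 h were seen at 4 of the 12: Mx1, Mx2, Sp100 and Trim25. Of all 3435 genes of the longer range 1.08% met this. Given how the list was chosen, nothing is read from this difference. Of the list's 64 genes, 50 had a promoter window and 25 of these held an ISRE core, against 3.99% of all 27025 genes with a window. Among the 12 named list genes, Ifih1, Eif2ak2 and Ifitm3 had an ISRE core in their windows, and Trim25, Sp100, Ifi35 and Irf1 had none. Mx1, Mx2, Parp9, Zbp1 and Dhx58 had no window in the table. Of the 23 genes with at least 10 peaks at 4 h and 0 at 0 h in the common range, 16 had a window and 2 of these, Rsad2 and Aoah, held an ISRE core.

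Of 18 genes that induce and pass on the interferon signal, 3 were named in the common range, by 12 peaks at 4 h and 4 at 0 h. There the whole 4 h list was 4.04 times as long as the 0 h list. More peaks at 4 h than at 0 h were listed for 2 of the 3, beside 76.9% of all genes. Of these Tbk1, the kinase that activates IRF3, had 6 at 4 h and 1 at 0 h, Traf3, an adaptor upstream of it, had 5 and 2, and Irf9 had 1 and 1. In the longer range 6 were named, with 18 peaks at 4 h and 4 at 0 h, and 5 of them had more at 4 h than at 0 h, beside 80.9% of all genes of that range. Ifnar2, a subunit of the type I interferon receptor, had 3 at 4 h and 0 at 0 h, Ly96 had 2 and 0, and Ifnar1 had 1 and 0. No gene of this list had at least 10 peaks at 4 h with 0 at 0 h. List members that no row names are left out, because it was not determined here whether the tables reach their IDs. Members named only beyond the end of the 4 h table are left out too. The counts over list genes therefore cover named genes only, and a list gene in range without a peak is missed. The genes of each range set beside them are likewise only those that some row names. The whole 0 h table, which reaches farther, named 10 of the 64 interferon-response genes by 10 peaks. It named 8 of the 18 induction and signalling genes by 12 peaks.

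**Figure D4:**
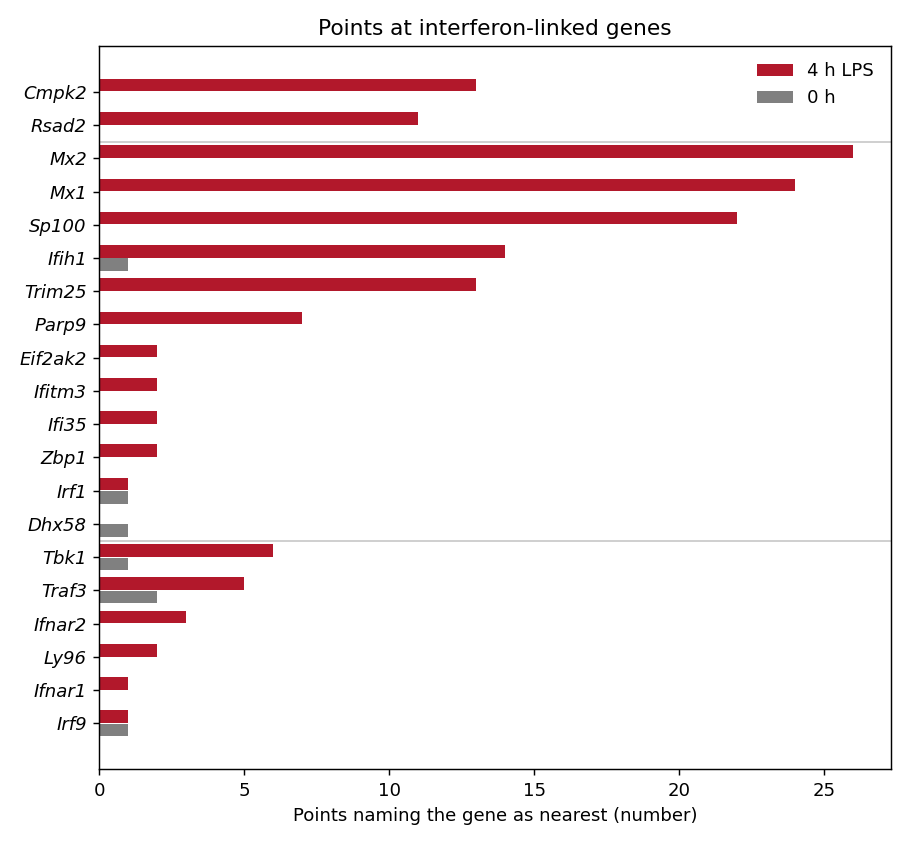
Number of peak points naming each gene at 4 h of LPS and at 0 h, for Cmpk2 and Rsad2 (top), the 12 named interferon-response genes (middle) and the 6 named induction and signalling genes (bottom) of the longer ID range. Mx2, Mx1 and Sp100 have 22 to 26 points at 4 h and 0 at 0 h, above Cmpk2 (13) and Rsad2 (11), and 10 of the 18 genes besides Cmpk2 and Rsad2 have 3 or fewer at 4 h.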

How the data were processed

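Titles put the 6 samples into ChIP and input groups of 0, 4 and 10 h, 1 library each. The submitters' processing notes name CASAVA 1.8, BWA 0.7.12, MACS2 2.1.0 and the build GRCm38 (mm10). Roles, settings and the use of the input are not given in the sources used here. The authors deposited 1 peak table per ChIP sample which, per the file headers, gives positions and distances in bp with the nearest gene. The annotation tool is not given. Depth is unknown. The last row of the 4 h table broke off and was left out.

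Peaks were counted with Python 3.11.15, pandas 2.3.3 and scipy 1.17.1, after a check of the counting code on simulated data. Rows are ordered by gene ID, so times were compared over IDs below the end of the shorter table. Gene spans, start sites and promoter windows come from RefSeq (GRCm38.p6). Both members matched by symbol. Named genes were Cmpk2, Rsad2 and any other gene touching the window of 20 kb to both sides. Also named were the 5 genes nearest to each member in log2 counts, and list members with at least 3 peaks. Others, the gap and stretch comparisons and the limit of 1 peak at 10 h were chosen after values were seen. The signalling list was planned with 1 more gene, which is not reported here. The members and lists were chosen with earlier results of these data known.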

Additional observations from a re-analysis of the deposited data

How the results depend on the processing

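Of 30 alternatives, 26 left their result within 1.5 times of the reported value. Several of these could not have moved. A narrower window, a merge of neighbours or a count by gene name alone leaves a count of 0 at 0. The count for the locus was 0 at 0 h and 1 at 10 h for windows of 5 or 50 kb to both sides, for neighbours within 500 bp merged, and by gene name alone. At 4 h it held 22 to 26 under these. Inside the gene alone, Cmpk2 held 11 peaks at 4 h. The 10 h peak lay near a 4 h peak at 200, 500 and 1000 bp, which its distance of 30 bp fixed in advance. The number of genes with 0 peaks at 0 h was 110 with at least 5 peaks at 4 h and 11 with at least 15, sets that by construction are larger and smaller. The longer ID range, which adds genes, raised the list members with more peaks at 4 h than at 0 h to 10 and 5. A stricter peak threshold could not be tried without scores. No paired analysis was possible because each group has 1 library and no test was made. Leaving out a replicate was not possible for the same reason.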
